A study of Mus musculus with 12 samples.

Results

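The interaction of ADI-PEG20 and chloroquine is described here across 16335 genes in all 12 libraries of the study: how far tumors given both drugs lay from the level that the separate effects of the drugs would add up to. For each gene it was computed on the log2 scale as the difference between doubly treated and chloroquine tumors, minus the difference between ADI-PEG20 and untreated tumors. A value of 0 means that the fold changes of the drugs multiply, a positive value that doubly treated tumors lay above this additive expectation, and a negative value that they lay below it. The tumors were formed by BVMA01R, a mouse sarcoma line of genotype Myf5-Cre;p53-/-;Ass1-/-, in female C57BL/6J mice, and every group shares these deletions. The groups were ADI-PEG20 with chloroquine, ADI-PEG20, chloroquine and no treatment, with 3 libraries each. The labels give no dose, schedule, age or tumor size, do not say whether the libraries come from separate animals, and describe 1 line, so the p-values measure the spread between these samples alone. The Myf5-Cre driver acts in cells of the muscle lineage, and RNA was extracted from whole tumors, which also hold host cells with intact genes.

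ADI-PEG20 is a pegylated arginine deiminase, an enzyme that breaks down arginine in the blood. Cells without Ass1, argininosuccinate synthase, cannot rebuild arginine from citrulline and depend on supply from outside. Chloroquine is a weak base that accumulates in lysosomes, raises their pH and blocks the last step of autophagy, by which starved cells recycle their own proteins. Amino acid shortage is sensed through the kinase GCN2 and the transcription factor ATF4, which together drive the integrated stress response, a program of transporters and biosynthetic enzymes. Chloroquine is also known to act on the endosomal sensors of nucleic acids in immune cells. Interferons, secreted when such sensors fire or when T cells are activated, induce antiviral enzymes, chemokines and the genes of antigen presentation.

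Ass1 gave 9.99, 11.3 and 17.2 CPM (reads scaled to a common library size) in doubly treated tumors, 16.4, 12.7 and 8.99 with ADI-PEG20, 11.3, 11.7 and 18.9 with chloroquine, and 6.85, 9.42 and 10.4 in untreated tumors. Trp53 ranged from 13.0 to 26.8 CPM over the 12 libraries. Gene totals do not show which exons were deleted, so neither gene checks the labels. Recovered reads came to 15501998 to 28410940 per library. ADI-PEG20 1 and untreated 2 stood apart, with 22.8% and 16.4% of their reads in the noncoding RNA Gm26917 against 5.09% to 9.86% elsewhere. ADI-PEG20 1 also had 120 genes at 0 reads, against 7 to 43 in the other libraries. The muscle and Met lists are given below with and without these libraries together. The other lists are not given without both, and several are given with single libraries left out.

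No gene passed limma's test of the interaction at a Benjamini-Hochberg adjusted p under 0.05 over 16335 genes, and the smallest adjusted p was 0.825. At an unadjusted p under 0.05 there were 696 genes, or 4.26% of those tested, where chance gives 817. Of these, 310 were positive (1.90% of all genes) and 386 negative (2.36%). The median interaction over all genes was 0.00, 50.4% of genes were positive, and the central range from the 5th to the 95th percentile ran from -1.11 to 0.92. The smallest p belonged to Gm21887, named after its values were seen, at -3.68 (SE 0.83), a gene of low level. Every gene named below with an unadjusted p under 0.05 had a limma adjusted p of 0.825, and none of the named genes passed. The count of 696 depended on single libraries. It was 1399 without ADI-PEG20 2, 1261 without untreated 3, 1153 without ADI-PEG20 3, 427 without doubly treated 2 and 374 without ADI-PEG20 1.

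The spread between libraries sets what could be seen. The median standard error of the interaction was 0.37, and the median 95% confidence interval reached 0.80 to either side of the estimate. The interval lay wholly between -1 and 1 for 40.0% of genes; for the others a departure of at least 2-fold in some direction was within the interval. The single-drug and combined differences also had 0 genes passing in limma. At an unadjusted p under 0.05, 1413 genes (8.65%) differed between doubly treated and untreated tumors, 559 (3.42%) between doubly treated and ADI-PEG20 tumors, and 1107 (6.78%) between doubly treated and chloroquine tumors. For ADI-PEG20 against no treatment the count was 1357 (8.31%), and for chloroquine against no treatment it was 555 (3.40%). All these comparisons share libraries with the interaction.

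**Figure D1:**
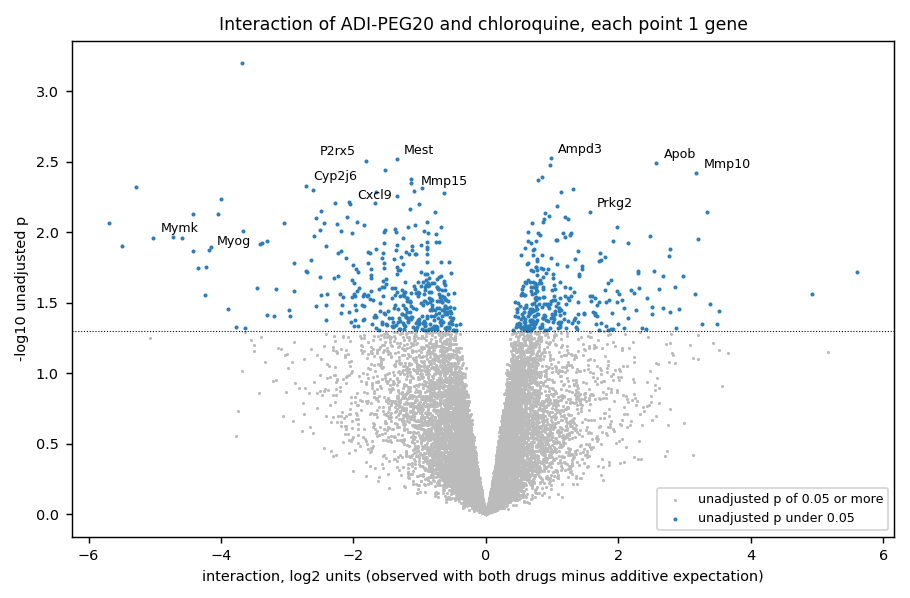
Each point is 1 of 16335 genes: the x axis is the interaction in log2 units (doubly treated tumors minus the additive expectation), the y axis is -log10 of the unadjusted p, and blue marks p under 0.05, 310 genes on the right and 386 on the left. No gene passed after adjustment, and Mest at -1.34, Mmp15 at -1.09, Cxcl9 at -2.06 and Mmp10 at 3.18 are among those labelled.

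Most of the genes with an unadjusted p under 0.05 had both single-drug means on the same side of the untreated mean, with the doubly treated mean nearer to it. Of the 310 positive genes, 294 had both single-drug means below the untreated mean, and for 235 of them the doubly treated mean was nearer to the untreated one than either single-drug mean was. Of the 386 negative genes, 352 had both single-drug means above the untreated mean, and 248 had the doubly treated mean nearest to it. Over all genes, both single-drug differences were opposite in sign to the interaction for 61.4%, and the doubly treated mean was also the nearest for 24.5%. The choice by p fixes part of this, because the untreated mean enters the interaction with the opposite sign to the single-drug means. Differences of doubly treated tumors from each single drug do not use the untreated libraries, and are given beside several results for that reason. They do not escape the choice by p, because the doubly treated and single-drug means enter the interaction too. The doubly treated mean lay past both single-drug means, in the direction of the interaction, for 300 of the 310 positive and 356 of the 386 negative genes. Over all 16335 genes this held for 10024.

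Interferon genes lay below the additive expectation as a group, with the single drugs and the combination at similar mean levels above the untreated mean. The 36 measured antiviral targets of type I interferon had a median interaction of -0.58, with 34 negative and 1 at an unadjusted p under 0.05. Their mean level in log2 CPM was 5.73, 4.81 and 5.66 in doubly treated tumors, 5.44, 5.50 and 5.23 with ADI-PEG20, 5.36, 5.30 and 5.96 with chloroquine, and 4.83, 4.36 and 5.59 in untreated tumors, against an additive expectation of 6.00. All 3 doubly treated libraries lay below that expectation, and all 4 groups overlapped. The median difference from untreated tumors was 0.52 with both drugs, 0.35 with ADI-PEG20 and 0.61 with chloroquine. Doubly treated tumors differed by a median of -0.03 from ADI-PEG20 and -0.14 from chloroquine tumors. The median interaction ran from -0.91 without untreated 3, the highest untreated library, to -0.26 without doubly treated 2, the lowest doubly treated one. It was -0.29 without untreated 2.

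Oas2 (ENSMUSG00000032690, chromosome 5, 120730333 to 120749853, GRCm38), an enzyme that senses double-stranded RNA and activates RNase L, gave 45.7, 23.1 and 40.4 CPM in doubly treated tumors. It gave 66.4, 34.0 and 29.8 CPM with ADI-PEG20, 35.3, 38.0 and 67.5 with chloroquine, and 15.6, 9.05 and 35.1 in untreated tumors. The treated groups overlapped one another, and untreated 3 lay within their range. Its interaction was -1.61 (SE 0.64), and it was the target at an unadjusted p under 0.05. Its neighbour Oas3, of the same enzyme family, was at -1.23 (SE 0.62), the PARP-family antiviral gene Parp12 at -0.82 (SE 0.38) and Tor3a at -0.69 (SE 0.36).

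The promoter windows of the antiviral genes were searched for GAAANNGAA, the core of the interferon-stimulated response element to which interferon-activated factors bind, on both strands. RefSeq windows of 250 bases before to 50 after the annotated start (GRCm38.p6) were matched for 26 of the 36 genes, and 15 of these 26 held the core (57.7%), against 8.56% of 32851 windows of all genes and 8.90% of the 10744 table genes with a window. Oas3 and Parp12, the antiviral genes with the smallest interaction p among those with a window, are shown because they are at the top of the same list and differ in this core. Capitals in the Oas3 window, on the minus strand at chr5:120777610-120777909, mark 2 overlapping matches that begin 75 and 69 bases before the start. The Parp12 window, on the minus strand at chr6:39118300-39118599, holds no match to these letters. Ifi35 and Sp100, the next genes by p with a window, also held no match, so Oas3 alone of these genes held the core.
Oas3: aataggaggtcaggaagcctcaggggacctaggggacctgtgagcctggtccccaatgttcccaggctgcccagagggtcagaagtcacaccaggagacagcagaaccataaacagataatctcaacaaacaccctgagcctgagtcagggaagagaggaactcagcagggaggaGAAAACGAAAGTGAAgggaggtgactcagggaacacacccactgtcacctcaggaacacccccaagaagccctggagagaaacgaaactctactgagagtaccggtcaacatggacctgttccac
Parp12: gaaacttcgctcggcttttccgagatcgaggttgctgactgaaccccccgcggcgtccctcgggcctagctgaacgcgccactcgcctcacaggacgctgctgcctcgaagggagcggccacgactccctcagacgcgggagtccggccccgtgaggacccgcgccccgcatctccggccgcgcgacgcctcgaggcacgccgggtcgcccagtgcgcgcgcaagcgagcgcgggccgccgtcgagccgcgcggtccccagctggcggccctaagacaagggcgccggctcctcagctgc

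Genes of the signalling steps above these targets had medians closer to 0. Receptors and signal transducers of interferon had a median of -0.29, with 15 of 18 negative and 1 at an unadjusted p under 0.05, and sensors of nucleic acids had -0.40, with 12 of 15 negative and 0 at that p. The receptor and transducer median was -0.15 without ADI-PEG20 1 and -0.17 without doubly treated 2. The sensor median was -0.16 without doubly treated 2, -0.26 without untreated 2 and -0.26 without chloroquine 3. Stat2, a subunit of the factor that binds the element above, gave 98.9, 57.6 and 102 CPM in doubly treated tumors, 147, 94.2 and 86.4 with ADI-PEG20, 97.7, 96.5 and 156 with chloroquine, and 68.4, 44.6 and 113 in untreated tumors. These ranges overlap throughout, and its interaction was -1.05 (SE 0.47). The values were -1.14 (SE 0.59) for Irf7, a transcription factor that amplifies type I interferon, and -0.60 (SE 0.30) for the receptor kinase Tyk2. Among the sensors, Tlr9, the endosomal receptor for unmethylated DNA, stood at -1.43 (SE 0.74), the Z-form nucleic acid sensor Zbp1 at -0.98 (SE 0.52), and Mavs, the adaptor of the cytosolic RNA sensors, at -0.32 (SE 0.20). The p200 genes, which include DNA sensors, had a median of -0.17 that ran from -0.53 without untreated 3 to 0.11 without doubly treated 2.

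Targets of interferon gamma lay below the expectation as well. All 18 measured chemokines and GTPases were negative, with a median of -0.76, and 1 was at an unadjusted p under 0.05. The list averaged 4.92, 4.13 and 4.92 log2 CPM in doubly treated tumors, 4.62, 4.75 and 5.01 with ADI-PEG20, 4.34, 4.26 and 5.20 with chloroquine and 3.65, 3.49 and 4.62 in untreated tumors, against an expectation of 5.47. No library of any group reached the expectation. The median was -1.18 without untreated 3 and -0.44 without chloroquine 3, the highest chloroquine library, and -0.48 without doubly treated 2.

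Cxcl9 (ENSMUSG00000029417, chromosome 5, 92321347 to 92328079), a chemokine that attracts activated T cells, gave 25.4, 8.88 and 32.6 CPM in doubly treated tumors. The other groups gave 23.7, 19.5 and 31.6 CPM with ADI-PEG20, 27.7, 31.8 and 31.2 with chloroquine, and 11.97, 4.70 and 13.4 without treatment. Each single drug kept all its libraries above the untreated ones, while doubly treated 2 lay within the untreated range. Its interaction was -2.06 (SE 0.64, 95% interval -3.43 to -0.69), and -1.49 without doubly treated 2. The interferon-inducible GTPases stood closer to 0, Igtp at -1.05 (SE 0.50), Irgm2 at -1.05 (SE 0.50) and Gbp2b at -1.16 (SE 0.55). Igtp and Irgm2 overlap on the same strand of chromosome 11, so their values may not be separate observations.

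Genes of antigen presentation also lay below the additive expectation. The class I heavy chains and the peptide loading genes had a median of -0.77, with 18 of 21 negative and 7 negative at an unadjusted p under 0.05, which is 33.3% of the list against 2.36% of all genes. Genes of a list are not independent, since they share libraries and cells. Expressed as a mean level, the list stood at 6.06, 5.36 and 6.24 log2 CPM in doubly treated tumors, 6.09, 6.00 and 6.10 with ADI-PEG20, 5.58, 5.60 and 6.46 with chloroquine and 5.07, 5.06 and 5.83 in untreated tumors, against an expectation of 6.62. The ADI-PEG20 libraries lay above every untreated one, and untreated 3 lay above chloroquine 1 and 2. Doubly treated tumors differed by a median of -0.16 from ADI-PEG20 and 0.02 from chloroquine tumors. Leaving out chloroquine 3 brought the median interaction to -0.40, leaving out doubly treated 2 to -0.45, and leaving out untreated 3 to -1.07.

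Tap1, a subunit of the transporter that carries peptides to class I molecules, gave 94.4, 44.9 and 101 CPM in doubly treated tumors, 94.6, 95.7 and 94.4 with ADI-PEG20, 71.3, 65.6 and 153 with chloroquine, and 33.4, 36.4 and 83.0 in untreated tumors. Its interaction was -1.27 (SE 0.55). H2-Q7, a nonclassical class I chain (ENSMUSG00000060550, chromosome 17, 35439155 to 35443773), stood at -1.74 (SE 0.65), H2-Q6 at -1.78 (SE 0.72) and H2-T24 at -0.86 (SE 0.34). H2-Q6 and H2-Q7 are near-identical copies, and how their shared reads were assigned is not given in the sources used here, so their values are uncertain.

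Class II presentation had a median of -1.18, with 9 of 10 negative and 0 at an unadjusted p under 0.05. Ciita, the master regulator of class II genes, gave 14.5, 13.5 and 34.7 CPM in doubly treated tumors, 31.3, 33.0 and 30.6 with ADI-PEG20, 10.4, 9.34 and 36.3 with chloroquine and 7.81, 9.98 and 13.7 in untreated tumors. The ADI-PEG20 libraries were uniformly high, while doubly treated and chloroquine tumors each had 1 library at that level and a pair well below it. The interaction of Ciita was -1.32 (SE 0.65), with the class II chains H2-Eb1 at -1.58 (SE 0.84) and H2-Ab1 at -1.55 (SE 0.85), and the loading factor H2-DMb1 at -1.09 (SE 0.60). The class II genes of doubly treated tumors differed by a median of -0.42 from ADI-PEG20 and 0.44 from chloroquine tumors. The list median of the interaction was -0.63 without chloroquine 3.

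Markers of lymphocytes lay below the expectation together with the interferon genes, and their part in the interferon result was not tested. In whole tumors, fewer cells of a type and less RNA per cell cannot be told apart. All 18 T cell markers were negative, with a median of -1.14 and 0 at an unadjusted p under 0.05. Their mean level was 0.88, -0.02 and 0.98 log2 CPM in doubly treated tumors, 1.08, 1.04 and 0.94 with ADI-PEG20, 0.42, 0.16 and 1.67 with chloroquine and -0.54, -0.03 and 0.40 in untreated tumors, against an expectation of 1.83. The median difference of doubly treated tumors was -0.45 from ADI-PEG20 and -0.33 from chloroquine tumors. In the chloroquine and untreated groups, library 3 was highest both for T cell markers and for the antiviral genes, and doubly treated 2 was lowest in its group for both. The ADI-PEG20 libraries did not follow this order, and doubly treated 3 was highest for T cell markers but doubly treated 1 for the antiviral genes. Cd8a, a coreceptor of cytotoxic T cells, was scarce, at 1.22, 1.09 and 3.57 CPM with both drugs, 2.90, 2.83 and 2.37 with ADI-PEG20, 1.31, 1.33 and 5.51 with chloroquine, and 0.979, 0.645 and 1.69 without treatment.

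Natural killer markers had a median of -1.23, with 5 of 6 negative, and B and plasma cell markers -1.81, with 4 of 4 negative and 2 at an unadjusted p under 0.05. The medians were -0.77 for natural killer markers without untreated 2 and -1.16 for B and plasma cell markers without chloroquine 3. Cd79b, a chain of the B cell receptor complex, gave 1.01, 0.45 and 1.84 CPM with both drugs, 3.30, 1.97 and 2.29 with ADI-PEG20, 1.25, 1.42 and 2.67 with chloroquine, and 0.819, 0.829 and 0.542 without treatment. Every ADI-PEG20 library lay above every doubly treated one, and the interaction was -2.62 (SE 0.78). Dendritic cell markers had a median of -0.74 that turned to 0.10 without chloroquine 3 and was -0.42 without doubly treated 2.

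Macrophage and monocyte markers lay near additivity: their median interaction was 0.02, with 11 of 19 positive and 1 positive at an unadjusted p under 0.05. The other 8 markers were negative, and single markers ran from -1.48 to 1.19. Their mean level was 6.25, 5.86 and 6.18 log2 CPM in doubly treated tumors, 5.96, 5.78 and 5.94 with ADI-PEG20, 5.31, 5.52 and 5.75 with chloroquine and 5.17, 5.39 and 5.53 in untreated tumors, against an expectation of 6.06. The doubly treated libraries thus lay on both sides of the additive expectation. Msr1, a scavenger receptor, was the marker with the smallest p, at 1.19 (SE 0.40), with 37.4, 39.5 and 29.99 CPM in doubly treated tumors and 16.6, 24.4 and 14.6 with chloroquine. Mrc1, the mannose receptor, stood at 0.67 (SE 0.36), and Csf1, the growth factor of macrophages, at -0.31 (95% interval -0.80 to 0.18).

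**Figure D2:**
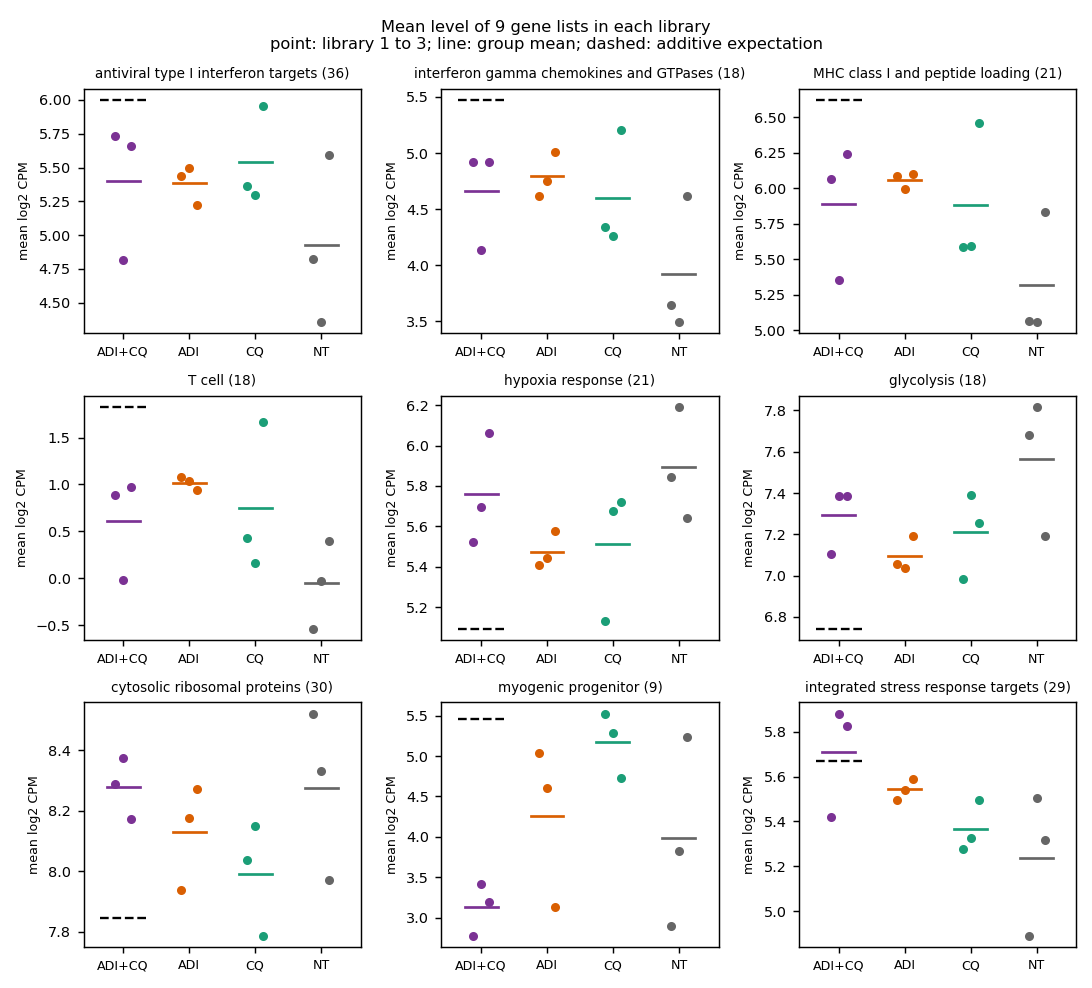
Each panel gives the mean log2 CPM of a gene list in the 12 libraries, with doubly treated (ADI+CQ), ADI-PEG20 (ADI), chloroquine (CQ) and untreated (NT) tumors from left to right; points are libraries, lines are group means and the dashed line is the additive expectation. Doubly treated tumors lay below the expectation for the 36 antiviral genes (expectation 6.00), above it for the 18 glycolysis genes (expectation 6.74), and on both sides of it for the 29 stress response targets (expectation 5.67).

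Glycolysis and the hypoxia response departed the other way. The hypoxia list had a median interaction of 0.77, with 17 of 21 positive and 5 positive at an unadjusted p under 0.05, 23.8% of the list against 1.90% of all genes. Its mean level was 5.53, 5.69 and 6.06 log2 CPM in doubly treated tumors, 5.41, 5.44 and 5.58 with ADI-PEG20, 5.13, 5.68 and 5.72 with chloroquine and 5.85, 6.19 and 5.64 in untreated tumors. The additive expectation was 5.09, below every doubly treated library. The glycolysis list had a median of 0.53, with 17 of 18 positive and 3 positive at that p, and its doubly treated libraries, at 7.10, 7.38 and 7.39 log2 CPM, lay above an expectation of 6.74. The median difference of doubly treated tumors from ADI-PEG20 tumors was 0.23 for hypoxia and 0.19 for glycolysis genes, and from chloroquine tumors 0.26 and 0.07. Leaving out single libraries moved the medians between 0.45 (without chloroquine 1, with 0.48 without untreated 2) and 0.93 (without untreated 3) for hypoxia, and between 0.41 (without ADI-PEG20 1) and 0.72 (without untreated 3) for glycolysis.

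P4ha1 (ENSMUSG00000019916, chromosome 10, 59323296 to 59373304), a subunit of the prolyl hydroxylase that matures collagen and a target of hypoxia-inducible factor, gave 108, 126 and 120 CPM in doubly treated tumors. It gave 82.0, 86.8 and 97.8 CPM with ADI-PEG20, 98.0, 119 and 82.4 with chloroquine, and 197, 134 and 116 in untreated tumors. Every doubly treated library lay above every ADI-PEG20 library. Its interaction was 0.97 (SE 0.27, 95% interval 0.38 to 1.56).

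Glucose entry and its further use contributed to both lists. Slc2a1, the main glucose transporter of tumor cells, gave 85.4, 156 and 181 CPM with both drugs, 92.9, 92.7 and 105 with ADI-PEG20, 60.1, 129 and 176 with chloroquine, and 186, 282 and 139 without treatment. The doubly treated and chloroquine groups were both widely spread, and the interaction was 1.28 (SE 0.52). The neuronal-type transporter Slc2a3 was at 1.21 (SE 0.51), hexokinase Hk2 at 0.78 (SE 0.34) and lactate dehydrogenase Ldha at 0.61 (SE 0.29). Among hypoxia genes, the mitophagy receptor Bnip3 was at 1.44 (SE 0.53), Ndrg1 at 0.87 (SE 0.32) and the histone demethylase Kdm3a at 0.77 (SE 0.31). Vegfa, the angiogenic growth factor and a hypoxia target, had 0.80 (SE 0.51).

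Genes of growth lay above the additive expectation by smaller amounts. All 30 measured cytosolic ribosomal protein genes were positive, with a median of 0.45 and 2 at an unadjusted p under 0.05. Their mean level was 8.29, 8.37 and 8.17 log2 CPM in doubly treated tumors, 7.94, 8.18 and 8.27 with ADI-PEG20, 8.04, 8.15 and 7.79 with chloroquine and 8.52, 8.33 and 7.97 in untreated tumors, against an expectation of 7.84. Doubly treated tumors lay above every chloroquine library and overlapped the other groups. Rpl5, a protein of the large subunit that also binds Mdm2, gave 317, 307 and 262 CPM with both drugs, 186, 253 and 292 with ADI-PEG20, 229, 290 and 195 with chloroquine, and 366, 351 and 264 without treatment. Its interaction was 0.76 (SE 0.28).

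Replication genes of the G1 to S transition had a median of 0.36, with 23 of 25 positive and 1 at an unadjusted p under 0.05, and genes of G2 and mitosis 0.23, with 20 of 26 positive and 0 at that p. The replication median was 0.21 without ADI-PEG20 1 and 0.23 without either untreated 1 or chloroquine 3. The mitosis median was 0.11 without either untreated 1 or chloroquine 3, 0.12 without doubly treated 1 and 0.14 without ADI-PEG20 1. The replication factor Cdc45 stood at 0.59 (SE 0.26), the helicase subunit Mcm4 at 0.50 (SE 0.24) and the polymerase clamp Pcna at 0.62 (SE 0.32). Canonical histone genes, whose transcripts lack a poly(A) tail and are kept by rRNA depletion, had a median of 0.37, with 17 of 18 positive and 3 at an unadjusted p under 0.05. Several histone genes are near-identical copies, so single values such as Hist1h4d at 0.58 (SE 0.27) are uncertain.

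Oxidative phosphorylation subunits of the nucleus had a median of 0.19, with 30 of 35 positive, and transcripts of the mitochondrial genome 0.60, with 11 of 13 positive and 0 at an unadjusted p under 0.05. The mitochondrial list ran from 0.31 without ADI-PEG20 1 and 0.33 without untreated 1 to 0.87 without untreated 2. Of the nuclear subunits, Ndufb3 of complex I was at 0.84 (SE 0.36) and Uqcrb of complex III at 0.73 (SE 0.42). Glutathione and NRF2 targets had a median of 0.31, with 15 of 19 positive, which was 0.13 without ADI-PEG20 1 and 0.18 without doubly treated 3. In this list 1 member was positive and 1 negative at an unadjusted p under 0.05, and the lowest member was at -0.88. Gsta4, which conjugates lipid aldehydes, was the highest, at 2.14 (SE 0.95). Cholesterol synthesis had a median of 0.34 that was 0.01 without ADI-PEG20 1, 0.18 without chloroquine 3 and 0.21 without untreated 1.

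The stress response, autophagy and lysosome lists had medians within 0.10 of 0, while amino acid transporters and the vacuolar proton pump lay further out. Integrated stress response targets had a median of 0.09, with 16 of 29 positive and 0 at an unadjusted p under 0.05. Their mean level was 5.42, 5.88 and 5.83 log2 CPM in doubly treated tumors, 5.50, 5.54 and 5.59 with ADI-PEG20, 5.28, 5.32 and 5.50 with chloroquine and 4.89, 5.51 and 5.32 in untreated tumors. Doubly treated 1 lay below the expectation of 5.67 and the other doubly treated libraries above it. The median was -0.06 without doubly treated 2 and 0.33 without doubly treated 1. TGATGNAA, the core shared by composite elements that bind ATF4, was found in the promoter windows of 11 of the 24 targets with a window (45.8%). It was held by 2.80% of the 10744 table genes with a window, and by 3.97% of all windows.

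Cth (ENSMUSG00000028179, chromosome 3, 157894248 to 157925077), which makes cysteine from cystathionine, gave 14.2, 43.0 and 31.4 CPM in doubly treated tumors, 6.87, 22.01 and 26.6 with ADI-PEG20, 4.46, 4.87 and 9.37 with chloroquine and 3.30, 3.22 and 6.15 in untreated tumors. All doubly treated libraries lay above all chloroquine and untreated ones. Its interaction was 0.20 (95% interval -1.38 to 1.79), so that a departure of 2-fold in either direction was not detectable at this spread. Atf4 itself was at 0.30 (95% interval -0.15 to 0.74), which excludes a 2-fold departure at this level of confidence. The cystine transporter Slc7a11 had 0.31 (-0.97 to 1.58), and the serine pathway enzyme Phgdh 0.27 (-0.35 to 0.90).

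Amino acid transporters had a median of -0.22, with 14 of 20 negative and 1 at an unadjusted p under 0.05. That median was close to 0 without doubly treated 1 (-0.03), untreated 1 (-0.07), chloroquine 1 (-0.08) or untreated 2 (-0.10). Slc7a3, a cationic amino acid transporter that takes up arginine (ENSMUSG00000031297, chromosome X, 101079210 to 101086020), gave 18.6, 53.6 and 44.0 CPM in doubly treated tumors. It gave 18.9, 45.5 and 33.1 CPM with ADI-PEG20, 9.26, 5.15 and 14.0 with chloroquine, and 3.50, 6.97 and 7.36 in untreated tumors. The doubly treated and ADI-PEG20 libraries overlapped and lay above all others. The interaction of Slc7a3 was -0.42 (SE 0.66, 95% interval -1.85 to 0.9999). Slc7a1, the more widely expressed arginine transporter, was closest to additivity, at -0.03 (-0.49 to 0.43), and Slc7a5, the leucine transporter, stood at -0.62 (SE 0.32). The member at an unadjusted p under 0.05 was Slc38a4, at -1.74 (SE 0.66), with 1.26, 1.61 and 1.66 CPM in doubly treated tumors and 4.51, 3.89 and 2.32 with chloroquine.

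Autophagy genes had a median of 0.01, with 16 of 32 positive, 3 positive and 1 negative at an unadjusted p under 0.05. Gabarapl1, a ubiquitin-like protein of the autophagosome membrane, gave 45.4, 44.3 and 46.4 CPM with both drugs, 42.5, 30.9 and 38.4 with ADI-PEG20, 33.6, 38.5 and 34.1 with chloroquine, and 44.3, 43.9 and 36.0 without treatment. Doubly treated tumors lay above both single-drug groups and met the highest untreated libraries, and the interaction was 0.52 (SE 0.22). The cargo receptor Sqstm1, whose protein accumulates when autophagy is blocked, had an interaction in RNA of 0.33 (95% interval -0.26 to 0.92). Lysosomal enzymes and membrane proteins had a median of 0.08, with 24 of 40 positive and 0 at an unadjusted p under 0.05.

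The vacuolar proton pump, which acidifies lysosomes, lay above the additive expectation, with a median of 0.32 over 17 subunits, 15 positive and 2 of these at an unadjusted p under 0.05. Its mean level was 5.58, 5.61 and 5.76 log2 CPM in doubly treated tumors, 5.39, 5.51 and 5.56 with ADI-PEG20, 5.47, 5.47 and 5.55 with chloroquine and 5.75, 5.66 and 5.60 in untreated tumors. Doubly treated libraries lay above all of the ADI-PEG20 and chloroquine libraries and above the expectation of 5.32. Atp6v1c1, a subunit of the cytosolic V1 sector, gave 60.7, 57.3 and 57.3 CPM with both drugs, 34.7, 54.8 and 41.9 with ADI-PEG20, 51.1, 55.0 and 52.4 with chloroquine, and 67.8, 59.5 and 54.9 without treatment, and its interaction was 0.64 (SE 0.23). Atp6v1a, the catalytic subunit, was at 0.55 (SE 0.22). The list median ran from 0.23 to 0.40 when single libraries were left out.

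The 2 muscle lists had the most negative medians of the 50, and their levels differed widely within groups. The list labelled myogenic progenitor, which also holds genes of muscle differentiation, had a median of -3.31. Of its members, 8 of 9 were negative and 5 were negative at an unadjusted p under 0.05. That is 55.6% of the list against 2.36% of all genes, but these genes share libraries and cells and are not independent. Pax7 and Pax3, which mark muscle stem cells, were not analysed here. The members named below belong to differentiation, fusion and immature fibres, so the list does not single out progenitors. Myog, the transcription factor of myoblast differentiation (ENSMUSG00000026459, chromosome 1, 134289989 to 134292548), gave 3.06, 4.26 and 2.30 CPM in doubly treated tumors, 18.1, 13.5 and 4.33 with ADI-PEG20, 42.3, 25.4 and 11.3 with chloroquine, and 0.499, 5.92 and 24.4 in untreated tumors. Doubly treated libraries lay below every ADI-PEG20 and chloroquine library, while the untreated ones spanned nearly the whole range. Its interaction was -4.18 (SE 1.47), its difference from chloroquine tumors was -2.89 and from ADI-PEG20 tumors -1.71.

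The fusion protein Mymk stood at -5.03 (SE 1.70), the embryonic myosin Myh3 at -4.72 (SE 1.60) and the perinatal myosin Myh8 at -3.67 (SE 1.22). The median of this list ran from -4.07 without ADI-PEG20 3 to -1.76 without untreated 1, and was -2.60 without both ADI-PEG20 1 and untreated 2. Mature skeletal muscle fibre genes had a median of -2.28, with 17 of 17 negative and 0 at an unadjusted p under 0.05. The fibre list averaged 1.36, 2.47 and 3.00 log2 CPM in doubly treated tumors, 7.29, 3.22 and 2.28 with ADI-PEG20, 5.02, 4.55 and 5.35 with chloroquine and 6.62, 2.12 and 5.12 in untreated tumors. The median was -0.95 without ADI-PEG20 1 and -1.16 without untreated 2, and turned to 0.30 without both ADI-PEG20 1 and untreated 2.

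Further lists hung on the spread within groups. The neighbourhood of Met and the caveolins on chromosome 6 had a median of 1.37, with 7 of 9 positive and 0 at an unadjusted p under 0.05. Met, the receptor of hepatocyte growth factor, gave 244, 2505 and 277 CPM in doubly treated tumors, 100.1, 1297 and 1164 with ADI-PEG20, 188, 862 and 906 with chloroquine, and 2709, 3617 and 358 without treatment. Each group held high and low libraries, and its interaction of 1.58 had a 95% interval of -1.91 to 5.07. The list median ran from 0.25 without doubly treated 2 to 2.55 without untreated 3, and turned to -0.23 without both ADI-PEG20 1 and untreated 2. Erythroid genes had a median of 2.02, with 6 of 6 positive and 0 at an unadjusted p under 0.05, and 1.24 without doubly treated 1. The globin Hbb-bs gave 50.7, 13.8 and 5.30 CPM in doubly treated tumors, 5.76, 2.32 and 5.20 with ADI-PEG20, 11.4, 29.5 and 2.37 with chloroquine, and 16.9, 43.9 and 6.79 in untreated tumors, which varies about as much within groups as between them. Globin genes also include near-identical copies.

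**Figure D3:**
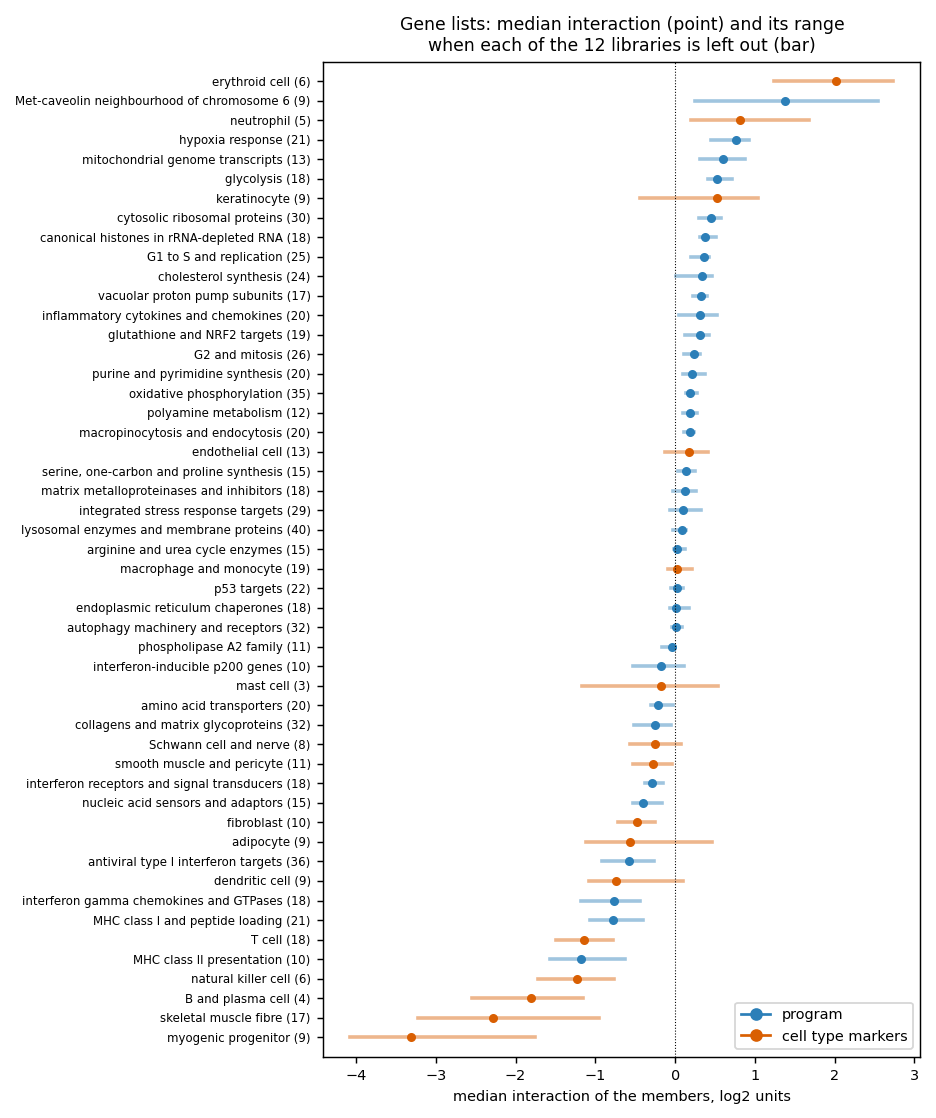
Each line is a gene list with the number of measured genes in brackets; the point is the median interaction of its genes in log2 units, and the bar is the range of that median when each of the 12 libraries is left out. The bars of antiviral genes (-0.91 to -0.26) and hypoxia response (0.45 to 0.93) stay on one side of 0, and the dotted line is the median over all genes, 0.00.

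The KEGG sets of the deposited tables were ranked by their median interaction. Of 220 sets with at least 15 measured genes, Ribosome had the highest median, 0.41, with 121 of 131 genes positive. At an unadjusted p under 0.05 there were 14 Ribosome genes, all positive, which is 10.7% of the set against 1.90% of all genes. Genes of a set are not independent, since they share libraries and cells. After Ribosome came Steroid biosynthesis (0.33), IL-17 signaling (0.24), RNA transport (0.23) and Glycolysis and gluconeogenesis (0.23). The lowest medians were those of the Intestinal immune network for IgA production (-0.58, 22 of 28 negative), Cell adhesion molecules (-0.30), Protein digestion and absorption (-0.22), ECM-receptor interaction (-0.20) and Regulation of lipolysis in adipocytes (-0.20). Without ADI-PEG20 1 the medians came to 0.01 for Steroid biosynthesis, 0.11 for IL-17 signaling, 0.09 for RNA transport, -0.09 for Protein digestion and absorption, -0.03 for ECM-receptor interaction and -0.08 for Regulation of lipolysis in adipocytes. Without chloroquine 3 they came to -0.31 for the IgA network, -0.13 for Cell adhesion molecules, 0.22 for Steroid biosynthesis and 0.15 for RNA transport. Without untreated 1 the medians of Steroid biosynthesis, Protein digestion and absorption, ECM-receptor interaction and Regulation of lipolysis were 0.22, -0.09, -0.13 and -0.12, and without ADI-PEG20 2 they were 0.53, -0.38, -0.32 and -0.37. The ECM-receptor median was also -0.11 without chloroquine 1 and -0.13 without either untreated 2 or ADI-PEG20 3, and that of Protein digestion -0.34 without chloroquine 2. The medians of Ribosome and of Glycolysis and gluconeogenesis moved by less than 1.5 times when any library was left out. These sets share genes with the lists above.

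Among single genes with a mean of at least 1 log2 CPM, the 12 with the smallest p in each direction included an AMP deaminase, proteases, an imprinted gene and a syntaxin. Ampd3 (ENSMUSG00000005686, chromosome 7, 110768206 to 110812405), which converts AMP to IMP, gave 17.9, 18.9 and 15.9 CPM in doubly treated tumors, 17.7, 13.5 and 15.6 with ADI-PEG20, 8.41, 12.2 and 11.8 with chloroquine, and 17.6, 19.0 and 19.4 in untreated tumors. Chloroquine tumors lay below all others, and doubly treated tumors close to untreated ones. The interaction was 0.98 (SE 0.27, 95% interval 0.40 to 1.57), with a difference of 0.72 from chloroquine and 0.18 from ADI-PEG20 tumors.

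Apob, the apolipoprotein of chylomicrons and low-density lipoprotein, gave 2.29, 1.31 and 1.89 CPM in doubly treated tumors, 0.675, 1.93 and 0.631 with ADI-PEG20, 1.63, 2.07 and 1.64 with chloroquine, and 7.65, 7.52 and 2.96 without treatment. All treated libraries lay below all untreated ones, with log2 differences from untreated tumors of -1.64 with both drugs, -2.56 with ADI-PEG20 and -1.65 with chloroquine. The interaction was 2.57 (SE 0.72). Mmp10, a stromelysin that degrades matrix, gave 5.24, 21.1 and 8.94 CPM with both drugs, 3.77, 10.2 and 13.6 with ADI-PEG20, 1.20, 3.33 and 3.55 with chloroquine, and 27.6, 25.6 and 7.87 without treatment. Chloroquine tumors were lowest, with no overlap with any other group, and the interaction was 3.18 (SE 0.91).

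Zc3h12c, a zinc finger protein of the family of the RNase Regnase-1, gave 423, 428 and 222 CPM in doubly treated tumors, 187, 254 and 222 with ADI-PEG20, 188, 175 and 215 with chloroquine and 213, 318 and 290 in untreated tumors. Doubly treated 1 and 2 were above every other library, doubly treated 3 was within the range of the other groups, and the interaction was 1.13 (SE 0.34). Prkg2, a cGMP-dependent kinase, was at 1.57 (SE 0.50) and Id2, an inhibitor of helix-loop-helix transcription factors, at 1.07 (SE 0.33). Tmem41b, a membrane protein needed for autophagosome formation, stood at 0.89 (SE 0.28), with 15.9, 18.1 and 17.6 CPM in doubly treated tumors and 9.65, 13.2 and 13.6 with ADI-PEG20. The remaining positive genes were AW549877 (0.84), the pseudogene Gpr137b-ps (0.79), 2700099C18Rik (1.32) and Hist1h2an (0.95).

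Mest (ENSMUSG00000051855, chromosome 6, 30723547 to 30748465), an imprinted gene expressed from the paternal allele in growing tissues, gave 50.6, 56.1 and 64.3 CPM in doubly treated tumors, 84.1, 52.2 and 68.7 with ADI-PEG20, 182, 121 and 99.0 with chloroquine and 54.3, 46.7 and 86.6 in untreated tumors. Chloroquine tumors lay above all others, and the doubly treated libraries lay within the untreated range. The interaction was -1.34 (SE 0.37, 95% interval -2.14 to -0.54), with a difference of -1.19 from chloroquine and -0.24 from ADI-PEG20 tumors.

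Mmp15 (ENSMUSG00000031790, chromosome 8, 95352268 to 95375080), a membrane-bound metalloproteinase, differed from the other 11 negative genes in that its ADI-PEG20 mean lay below the untreated mean, by a log2 difference of -0.57. It gave 28.7, 29.0 and 24.2 CPM in doubly treated tumors, 62.2, 52.8 and 34.9 with ADI-PEG20, 108, 85.6 and 69.7 with chloroquine, and 57.7, 88.1 and 74.1 in untreated tumors. No doubly treated library reached any library of another group. Its interaction was -1.09 (SE 0.33, 95% interval -1.80 to -0.39), and doubly treated tumors differed by -0.84 from ADI-PEG20, -1.66 from chloroquine and -1.41 from untreated tumors. Over the 18 matrix metalloproteinases and inhibitors the median was 0.13, from -0.03 without untreated 3 to 0.26 without untreated 1, with 3 positive and 1 negative, Mmp15, at an unadjusted p under 0.05; the macrophage elastase Mmp12 was at 1.60 (SE 0.65) and the collagenase Mmp13 at 2.05 (SE 1.02).

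P2rx5, an ATP-gated ion channel known from differentiating muscle, gave 3.32, 3.75 and 3.02 CPM in doubly treated tumors, 7.03, 4.46 and 4.29 with ADI-PEG20, 8.14, 6.46 and 6.24 with chloroquine and 1.86, 2.92 and 5.07 in untreated tumors. Both single-drug groups lay above all doubly treated libraries, and the interaction was -1.81 (SE 0.50). Stx16, a syntaxin of the trans-Golgi network that takes part in the fusion of endosomes and autophagosomes, had the smallest spread, at 41.3, 40.9 and 40.9 CPM in doubly treated tumors, 54.7, 50.6 and 47.4 with ADI-PEG20, 45.7, 44.4 and 46.2 with chloroquine and 31.7, 37.8 and 39.8 in untreated tumors. Here the 4 groups did not overlap, in the order ADI-PEG20, chloroquine, doubly treated, untreated, and the interaction was -0.63 (SE 0.19). Pkdcc, a secreted kinase of the skeleton, was at -1.14 (SE 0.33), the exosome subunit Exosc5 at -1.13 (SE 0.33), the transcription factor Ebf3 at -1.66 (SE 0.50) and the epoxygenase Cyp2j6 at -2.72 (SE 0.80). The remaining negative genes were Zfp61 (-1.53), 4933423P22Rik (-0.96), Gm26749 (-1.34) and Gm18301 (-2.28).

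**Figure D4:**
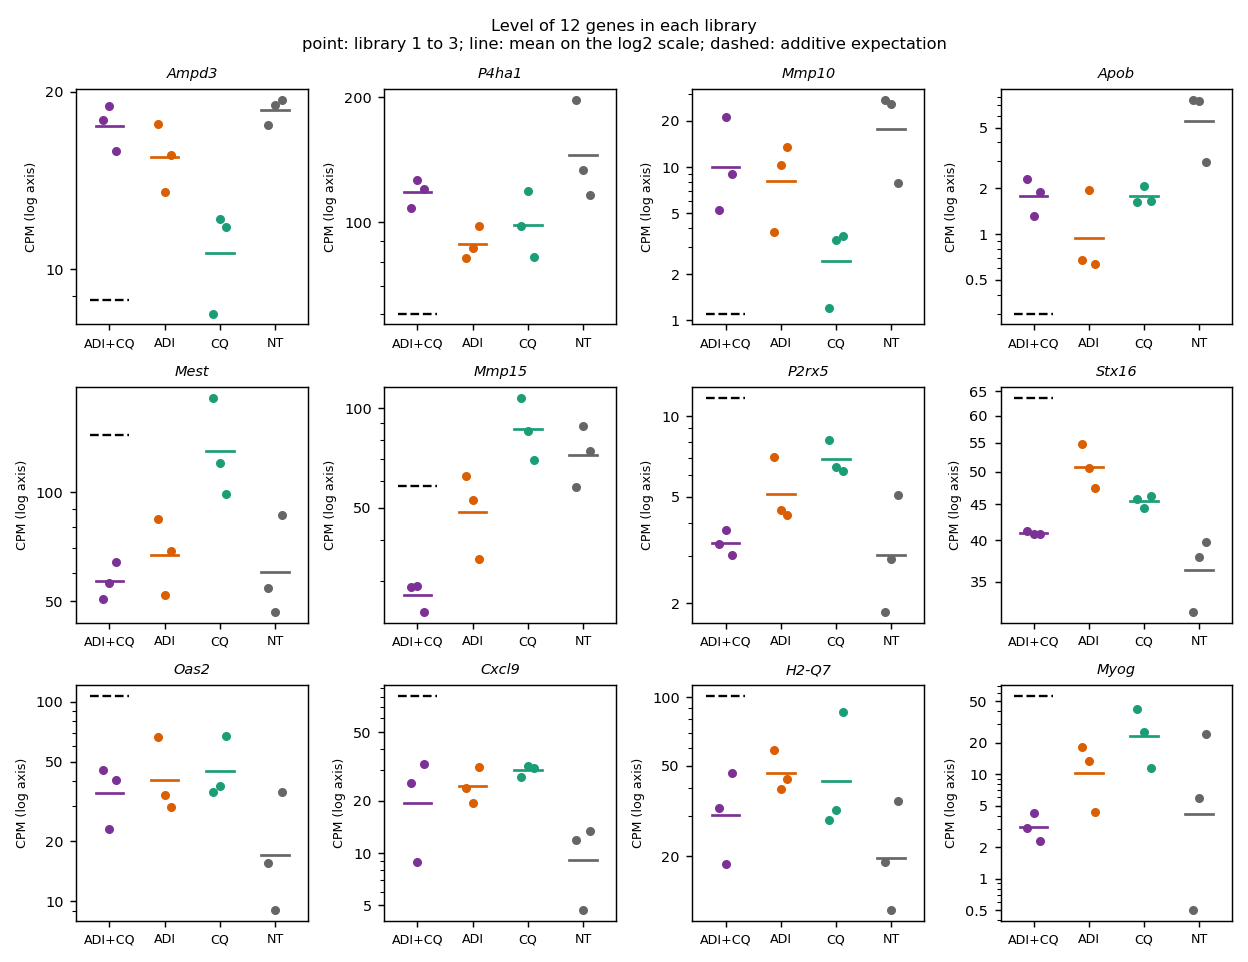
Each panel gives the level of a gene in CPM on a log axis in the 12 libraries, with doubly treated (ADI+CQ), ADI-PEG20 (ADI), chloroquine (CQ) and untreated (NT) tumors from left to right; points are libraries, lines are means on the log2 scale and the dashed line is the additive expectation. For Mmp15 all doubly treated libraries, at 24.2 to 29.0 CPM, sit below every other library, while for Mest they sit at 50.6 to 64.3 CPM, within the untreated range of 46.7 to 86.6 CPM.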

How the data were processed

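RNA from frozen tumors was depleted of ribosomal RNA, per the labels' protocols. The submitters' processing notes list, without their roles, limma, edgeR, featureCounts 1.4.6-p5 (Subread), STAR 2.5.1a, bcl2fastq and Salmon 0.8.2, and the build mm10. The authors deposited log2 CPM per library: 16386 lines, 16335 genes after 51 repeated lines were dropped. The values are log2 of reads plus 0.5 over an effective library size, and 100% of values under 2000 reads came within 0.02 of a whole read, so CPM printed here include that offset. The lowest gene total was 85 reads, and no further filter was used. Strandedness of the counting is not given in the sources used here, so overlapping and antisense genes cannot be told apart.

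The interaction and 5 simple contrasts were fitted with limma 3.58.1 (R 4.3.3) on all 12 libraries, no covariate, moderated with a trend in expression, two-sided, adjusted by Benjamini and Hochberg. The code was tested on simulated data. Members and lists were chosen with earlier results of these data known. The 50 lists hold 907 genes, 843 in the table, and are described by counts and medians, as are KEGG sets named in the authors' deposited tables. Counts of members at an unadjusted p under 0.05 stand beside 1.90% of all genes for positive and 2.36% for negative interactions. Named genes were the 12 of smallest p in each direction with a mean of at least 1 log2 CPM, up to 4 of each described list, the deleted genes and known readouts. List members were taken by smallest p among those with the sign of the list median. Members of the opposite sign were not named by this rule, so the named members do not represent their list. Alternatives were other weights, scalings, a filter, a pseudocount, a replicate block, linear CPM, the authors' deposited log2 fold changes and leaving out libraries.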

Additional observations from a re-analysis of the deposited data

How the results depend on the processing

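The count of genes passing the interaction test was 0 under every alternative that gives a test. Library quality weights gave 249 negative genes at an unadjusted p under 0.05, against 386. When each library was left out in turn, the positive count ran from 173 to 666 and the negative count from 201 to 747. The replicate numbers were not used as pairs in the main fit. Deviations of same-numbered libraries correlated at -0.16 to 0.28 (median 0.14), and those of differently numbered libraries at -0.34 to 0.29 (median -0.06). Of the 12 libraries, 9 correlated best with their own number, so the numbers may mark some shared structure. Its source was not tested. With a replicate block, 926 genes had an unadjusted p under 0.05, against 696 without it. Of these, 358 were positive and 568 negative, and 0 passed (smallest limma adjusted p 0.777).

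Of 145 named genes, 135 kept their sign under every alternative. Most of them were chosen by smallest p in the direction of the estimate or of their list median. The alternatives also reuse the same libraries, and some leave the estimate itself unchanged. The choice therefore fixes much of this count, which is no independent support for the signs. Without single libraries, Slc7a1 ran from -0.15 to 0.064, Jchain from -3.07 to 0.49, Cth from -0.40 to 0.66, Slc7a11 from -0.22 to 0.73 and Slc7a3 from -0.80 to 0.039. Cth was at -0.043 with library quality weights, -0.069 with voom and library weights, and -0.072 from the authors' deposited table. On the linear CPM scale, divided by the mean level, Slc7a3 was at 0.13 and Slc7a1 at 0.012. Without ADI-PEG20 1 and untreated 2 together, an alternative chosen after seeing the data as was voom with library weights, Cav1 was at -0.061, Capza2 at -0.20, Cav2 at -0.23, Met at -0.25, Phgdh at -0.11, Slc7a11 at -0.21 and Cth at -0.24. The cause was not tested. With 3 libraries a group, the median 95% interval of 0.80 to either side limits what these data can show.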
